A study of Mus musculus with 18 samples.

Results

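The 10 genes described here encode the receptors through which myeloid cells receive the colony-stimulating factors, interleukin 3, interleukin 6 and interferon gamma: Csf1r, Csf2ra, Csf2rb, Csf2rb2, Csf3r, Il3ra, Il6ra, Il6st, Ifngr1 and Ifngr2. They were chosen by name and not by a cut on their values, though with earlier results of these data known. All 10 were present in each of 3 deposited tables of 12679, 12861 and 12838 genes. The samples were acute myeloid leukemia (AML) cells driven by the MLL/ENL fusion and Nras, either p53WT or p53null, grown in syngeneic C57BL/6 mice. All leukemias of every group carried MLL/ENL and Nras and were sorted from the marrow as GFP-positive cells. Mice received either CX-5461, a drug that blocks RNA polymerase I, or vehicle, which gave 6 groups of 3 samples. Both arms exist for p53WT AML after 10 h, p53null AML after 10 h and p53WT AML after 72 h.

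Csf3r and Csf1r encode the receptors for granulocyte and macrophage colony-stimulating factor (G-CSF and M-CSF), which act in the granulocyte and the monocyte lineage. The other receptors here are built from a ligand-binding chain and a signalling partner: Csf2ra with the common beta chain Csf2rb for GM-CSF, Il3ra with Csf2rb or with the mouse-specific Csf2rb2 for interleukin 3, Il6ra with gp130 (Il6st), and Ifngr1 with Ifngr2. Apart from Csf1r, which is itself a tyrosine kinase, these receptors signal through JAK kinases and STAT transcription factors.

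Csf2rb and Csf2rb2 are near-identical neighbours on chromosome 15, and this bears on every value given for them. Their coding sequences, of 2688 and 2634 bases in GENCODE M21, were 95.2% identical over the aligned bases. The first 90 coding bases of each are shown 5′ to 3′, with capitals at the bases that differ.
Csf2rb: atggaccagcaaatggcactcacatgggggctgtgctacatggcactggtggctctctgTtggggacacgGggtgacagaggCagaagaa
Csf2rb2: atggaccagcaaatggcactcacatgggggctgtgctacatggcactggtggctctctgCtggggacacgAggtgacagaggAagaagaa
Only 3 of these 90 bases differ. Of all windows of 50 bases in a transcript of Csf2rb, 18.4% also occurred whole in Csf2rb2, and 19% the other way round. At 100 bases the shares were 6.96% and 7.2%. How the authors' counting treated reads that fit both genes is not stated in any source at hand, so the split of reads between the 2 genes is uncertain.

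The promoters of 4 members that passed a test in one of the comparisons below are shown next, as the 250 bases before the RefSeq start site on the gene's strand, 5′ to 3′, in GRCm38.p6 (the authors' files used mm9). Capitals mark matches on either strand to GAGGAAG (the core bound by PU.1 and other ETS factors), TTGCNNAA (C/EBP) or TTCNNNGAA (STAT). PU.1 and C/EBP factors are known regulators of myeloid receptor genes, and STAT factors act downstream of most receptors described here.
Csf3r, chr4:126024409-126024658, plus strand: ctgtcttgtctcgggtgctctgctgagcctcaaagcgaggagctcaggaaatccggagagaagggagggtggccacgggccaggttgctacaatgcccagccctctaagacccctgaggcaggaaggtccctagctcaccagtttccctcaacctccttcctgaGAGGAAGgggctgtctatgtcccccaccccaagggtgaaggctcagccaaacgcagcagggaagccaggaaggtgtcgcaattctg
Csf2rb2, chr15:78305722-78305971, minus strand: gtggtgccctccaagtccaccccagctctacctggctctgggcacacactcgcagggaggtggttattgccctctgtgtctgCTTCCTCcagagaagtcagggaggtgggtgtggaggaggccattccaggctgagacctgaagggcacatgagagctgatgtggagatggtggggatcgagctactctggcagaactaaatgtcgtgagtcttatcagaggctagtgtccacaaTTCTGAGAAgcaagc
Il3ra, chr14:14346245-14346494, plus strand: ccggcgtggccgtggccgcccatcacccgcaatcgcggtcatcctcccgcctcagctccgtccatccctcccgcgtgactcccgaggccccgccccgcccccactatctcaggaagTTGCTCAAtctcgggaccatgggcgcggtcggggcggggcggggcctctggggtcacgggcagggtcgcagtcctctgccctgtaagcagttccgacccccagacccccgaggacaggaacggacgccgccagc
Ifngr1, chr10:19591699-19591948, plus strand: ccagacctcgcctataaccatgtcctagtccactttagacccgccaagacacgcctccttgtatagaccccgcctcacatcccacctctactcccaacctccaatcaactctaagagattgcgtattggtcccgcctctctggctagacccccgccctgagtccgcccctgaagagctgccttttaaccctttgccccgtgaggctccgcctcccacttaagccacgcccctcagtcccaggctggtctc
The promoter table matched 8 of the 10 members, all but Csf1r and Csf2rb. GAGGAAG occurred in 3 of these 8 windows, at -86 in Csf3r, at -168 in Csf2rb2 and at -14 and -8 in Csf2ra, and in 10.6% of all 32851 windows of the same length. TTGCNNAA occurred in 1 of the 8, at -134 in Il3ra, against 9.56% of all windows. TTCNNNGAA occurred in 1, at -15 in Csf2rb2, against 7.02%. The windows of Ifngr1, Ifngr2, Il6ra and Il6st held none of the 3 letter strings.

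Values per library exist for p53WT AML at 10 h only, as counts scaled to the library total (CPM). The 3 vehicle libraries held 48118513, 27921504 and 22090394 counts and the 3 CX libraries 37244725, 21578685 and 23150282, and single members were covered by 343 (Il6st) to 23091 (Ifngr1) reads in a library. Trp53, the gene of p53, averaged 169 and 163 CPM in the authors' deposited tables for p53WT AML at 10 h and 72 h and 61.5 CPM in that for p53null AML, and which part of it those cells lack is not stated. The labels do not say whether the 3 samples of a group came from separate mice or leukemias, so p-values measure the spread between these samples only. Vehicle library 2 had the highest summed erythroid and mature neutrophil markers, and vehicle libraries 1 and 3 also lay above the CX libraries. The summed level of 11 measured erythroid markers (of 12 listed, Ahsp being absent) was 15711 CPM in it, 4663 and 636 CPM in vehicle libraries 1 and 3, and 411 to 573 CPM in the CX libraries. The 14 mature neutrophil markers summed to 7624 to 19967 CPM with vehicle and 3206 to 4408 CPM with CX-5461. In bulk RNA, fewer cells of a type and less RNA per cell cannot be told apart.

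In vehicle-treated p53WT AML, members differed widely in level. On the scale of CPM per kilobase of exon, Ifngr1 (168 ± 2.44, mean ± SD, n = 3) and Csf2ra (153 ± 7.91) led, followed by Csf3r (83.2 ± 2.04), Csf2rb (45.3 ± 3.82) and Csf1r (34.1 ± 3.81). Csf2rb2 (22.1 ± 3.25), Il3ra (17.6 ± 3.28) and Ifngr2 (16.1 ± 0.186) came next, and neighbours among these 3 overlapped between libraries. Il6ra stood at 12.7 ± 1.77 and Il6st, the shared gp130 chain, was lowest at 1.88 ± 0.495 CPM per kilobase. With CX-5461 the order was the same except that Il3ra (20.1 ± 0.561) stood above Csf2rb2 (18 ± 2), and Ifngr2 (14.3 ± 1.2) overlapped Il6ra (11.6 ± 1.74). In both arms the ligand-binding chain of GM-CSF and of interferon gamma was thus more abundant per length than its signalling partner.

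**Figure D1:**
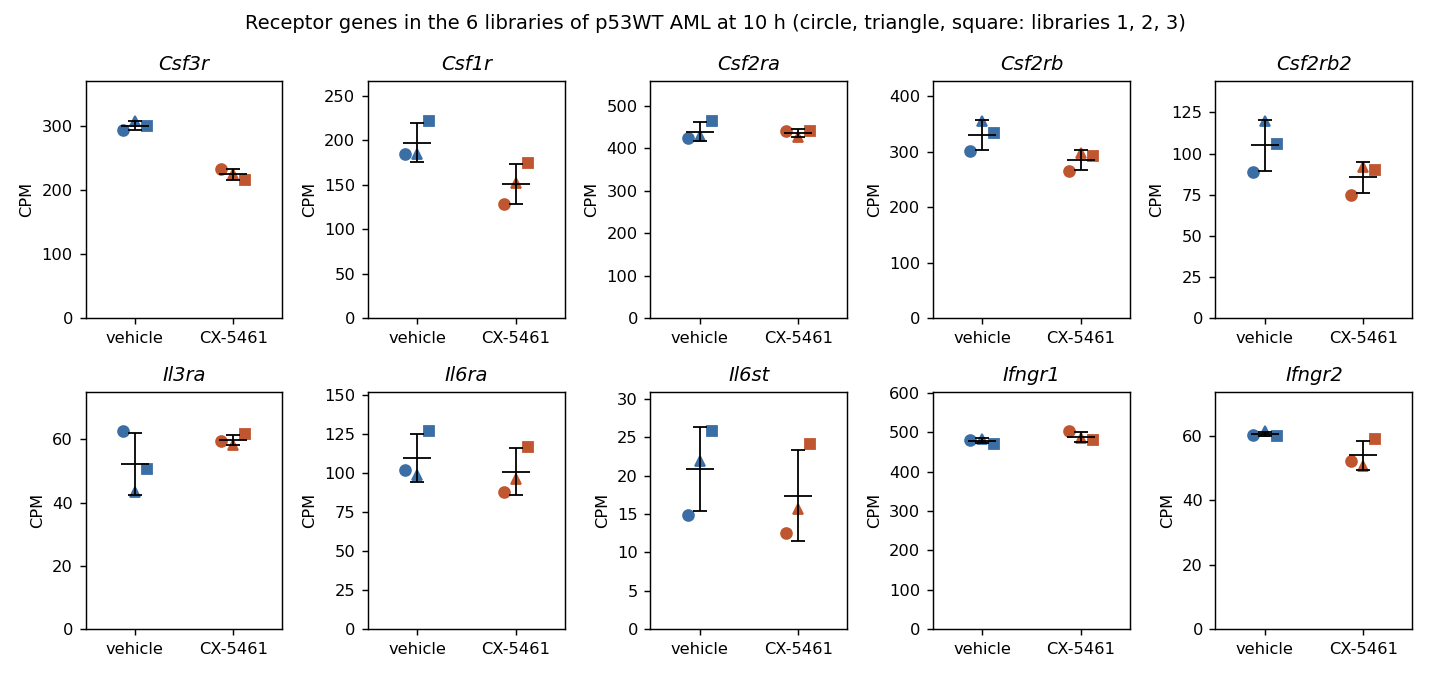
Level of each receptor gene (CPM, y axis from 0) in the 3 vehicle and the 3 CX-5461 libraries of p53WT AML at 10 h; points are libraries, shaped by column number, and bars give the mean and SD. Csf3r lies at 294 to 308 CPM with vehicle and 215 to 232 CPM with CX-5461, while Csf2ra and Ifngr1 overlap between the arms.

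After 10 h of CX-5461 in p53WT AML, 1 of the 10 receptor genes passed the test: Csf3r was 25.4% lower. That is 1 member called lower where 4.32% of all genes were, and 0 called higher where 3.78% of all genes were. These counts come from the edgeR quasi-likelihood test, in which 4 members had an unadjusted p under 0.05, all 4 of them lower, against 31.4% of all genes in either direction and 16.7% lower. The count called lower depended on the test. It was 2 by DESeq2 and by the edgeR exact test, which added Csf1r, and 3 with the column number as a replicate block, which added Csf1r and Csf2rb2. DESeq2, the exact test and the block called 0 members higher. In the authors' deposited table for the same libraries, Csf3r was again the only member called, where 6.83% of all genes were called lower and 3.57% higher, and 2 members had an unadjusted p under 0.05, against 21.2% of all genes. Of the 10 log2 fold changes 8 were negative, with a median of -0.19 against 0.00 over all genes. One of the 8, that of Csf2ra (-0.01), was 0.03 when scaled by library size alone. The 6 libraries did not overlap for 4 members, Csf3r, Csf1r, Csf2rb and Ifngr2, all lower with CX-5461, and for 0 members that were higher. Over all genes, 19.1% did not overlap and were lower, and 19.9% did not overlap and were higher.

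Csf3r, the G-CSF receptor of granulocytes and their precursors, read 294, 308 and 299 CPM with vehicle and 232, 224 and 215 CPM with CX-5461. Both arms were tight, and the highest CX library lay well under the lowest vehicle library. The mean went from 300 ± 7.35 to 224 ± 8.53 CPM (SD, n = 3). This was a log2 difference of -0.42 (SE 0.0484, 95% interval -0.54 to -0.31), with a Benjamini-Hochberg adjusted p of 0.0136 by edgeR's quasi-likelihood test. It ranked at 46 of 12679 genes by p. The direction held without each library in turn (-0.45 to -0.40). Without vehicle library 2, the library richest in erythroid and neutrophil markers, the value was -0.40 (edgeR adjusted p 0.0102). Vehicle libraries 1 and 3 stayed in that fit, and their marker sums also lay above every CX library. Those sums were 4663 and 636 CPM for erythroid and 11038 and 7624 CPM for neutrophil markers, so that fit does not separate Csf3r from the markers. Without CX library 1, 2 or 3 the call was lost, at edgeR adjusted p of 0.0957, 0.119 and 0.0871, where the count of all called genes also went from 1027 to 25, 23 and 23.

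Mature neutrophils are known to carry Csf3r, and 11 of 14 mature neutrophil markers fell in the same comparison (median log2 fold change -1.97). When their mean level entered the fit as a covariate, the log2 fold change of Csf3r was -0.40 and its edgeR adjusted p 0.31, in a fit that called 13 genes in all. With the erythroid markers, of which 6 of 11 measured fell, it was -0.40 with an edgeR adjusted p of 0.279 and 20 genes called. Both marker levels differ between the arms, so these fits separate treatment from markers poorly. The genes most like Csf3r over the 6 libraries, of 9464 with a mean of at least 5 CPM, were Rasgrp4, a Ras activator of myeloid and mast cells, the splicing-factor kinase gene Srpk2 and the spindle gene Haus4. Their Pearson r with Csf3r was 0.998, 0.996 and 0.995. These 3 were picked as the highest values, and Csf3r varied little within the arms (log2 range 0.07 with vehicle, 0.11 with CX-5461). They thus mainly describe a difference between the arms that the genes share. Rasgrp4 went from 85.3, 98.1 and 90.7 CPM with vehicle to 56.7, 52.5 and 50.7 CPM with CX-5461.

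Csf1r, the M-CSF receptor of monocytes and macrophages, stood at 184, 185 and 222 CPM with vehicle and at 128, 152 and 174 CPM with CX-5461. The arms did not overlap, but each spread more widely than for Csf3r. The log2 fold change was -0.38 (SE 0.124, interval -0.67 to -0.09) from 197 ± 22 to 151 ± 22.7 CPM, with a Benjamini-Hochberg adjusted p of 0.0907 by edgeR's quasi-likelihood test. DESeq2 and the edgeR exact test called it, at adjusted p of 0.0178 and 0.0435, as did the edgeR quasi-likelihood fit with the column number as a replicate block (-0.39, adjusted p 0.0237). Whether column numbers mark a pairing depended on the genes used to check it. The 10 measured monocyte and macrophage markers, of 12 listed (Marco and Ms4a7 absent), summed to 470 to 674 CPM with vehicle and 440 to 460 CPM with CX-5461. Of the 10 log2 fold changes 9 were negative and 1 positive, with a median of -0.85. The edgeR quasi-likelihood test called 2 of these markers lower, and the authors' deposited table called 6 of them lower. Their part in the level of Csf1r was not tested.

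Among the ligand-binding chains, Csf2ra was level. It was measured at 423, 428 and 465 CPM with vehicle and at 441, 426 and 440 CPM with CX-5461, and the 95% interval of its log2 fold change was -0.14 to 0.12. Il3ra, the interleukin 3 chain, stood at 62.6, 43.3 and 50.7 CPM with vehicle and at 59.5, 58.3 and 61.6 CPM with CX-5461. Its vehicle libraries spanned the CX libraries, and its log2 fold change of 0.19 (SE 0.125, interval -0.10 to 0.49) had an edgeR adjusted p of 0.335. Without vehicle library 1, the highest, it was 0.35 with an edgeR adjusted p of 0.0474, and without vehicle library 2, the lowest, 0.07 with an edgeR adjusted p of 0.648.

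The beta chains both had lower means with CX-5461 without passing the test. Csf2rb was measured at 301, 356 and 333 CPM with vehicle and at 266, 298 and 292 CPM with CX-5461, a log2 fold change of -0.21 (SE 0.0772, interval -0.39 to -0.03, edgeR adjusted p 0.119). Csf2rb2 was measured at 88.7, 120 and 106 CPM and at 74.7, 91.9 and 90 CPM, a log2 fold change of -0.29 (SE 0.125, edgeR adjusted p 0.164). With the replicate block, Csf2rb2 passed the edgeR test (-0.29, adjusted p 0.034) and Csf2rb narrowly did not (-0.21, adjusted p 0.0514). The 2 genes followed each other across the 6 libraries with a Pearson r of 0.99, a description over libraries in which they may share reads.

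Il6ra, the interleukin 6 chain, stood at 102, 99.1 and 127 CPM with vehicle and at 88.1, 96.5 and 117 CPM with CX-5461. Il6st stood at 14.9, 21.9 and 25.8 CPM and at 12.5, 15.7 and 24.1 CPM. For both genes the arms overlapped and the library numbered 3 was highest in each arm, as it was for Csf1r. Their log2 fold changes were -0.12 (interval -0.43 to 0.19) and -0.26 (interval -0.92 to 0.40), each with an edgeR adjusted p of 0.561. Both values moved with single libraries: without one library, Il6ra ranged from -0.25 (without CX library 3) to -0.00 (without vehicle library 3) and Il6st from -0.56 (without CX library 3) to -0.06 (without CX library 1). Deviations from the arm means correlated at 0.97 between Csf1r and Il6ra, at 0.88 between Csf1r and Il6st and at 0.84 between Il6ra and Il6st. These are descriptions over 6 libraries that the genes share.

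Ifngr1, the ligand-binding chain for interferon gamma, spread least in vehicle on the log2 scale after its partner, at 481, 484 and 471 CPM, and stood at 503, 485 and 480 CPM with CX-5461. Its log2 fold change was 0.03 with an interval of -0.08 to 0.14. Ifngr2, the signalling partner, stood at 60.3, 61.4 and 60 CPM with vehicle and at 52.2, 50.6 and 59.1 CPM with CX-5461. The arms did not overlap, by a margin set by CX library 3, and the log2 fold change was -0.17 (SE 0.0674, interval -0.33 to -0.01, edgeR adjusted p 0.144).

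**Figure D2:**
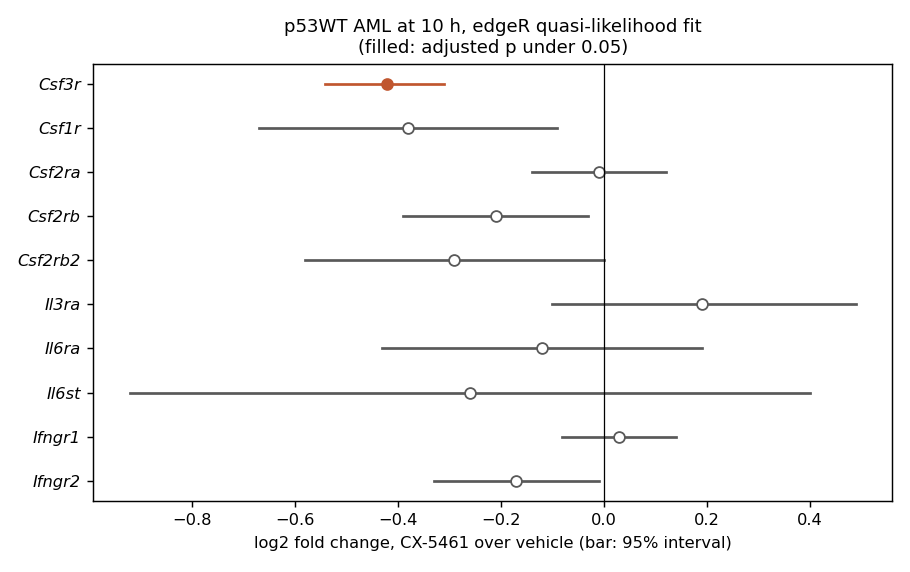
Log2 fold change of each receptor gene (x axis, CX-5461 over vehicle) in p53WT AML at 10 h, with its 95% interval from the edgeR quasi-likelihood fit over 3 against 3 libraries. Csf3r (-0.42) is the filled point, with an adjusted p under 0.05, and the interval of Il6st, the member with the lowest level, is the widest.

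The balance between receptor partners was compared as a log2 ratio of CPM within each library, with exact two-sided permutation tests over the 6 libraries, which cannot give a p under 0.1. Csf2ra over Csf2rb went from 0.41 ± 0.128 to 0.61 ± 0.111 (SD, n = 3, exact p = 0.1), without overlap of the arms. Ifngr1 over Ifngr2 was 2.99, 2.98 and 2.97 in the vehicle libraries and 3.27, 3.26 and 3.02 in the CX libraries, also without overlap (exact p = 0.1). Il3ra over Csf2rb2 differed by 0.50 and Il6ra over Il6st by 0.16, with overlapping arms and exact p of 0.3 and 0.6. Without one library, the first ranged from 0.27 (without vehicle library 2) to 0.75 (without vehicle library 1). The second ranged from 0.03 (without vehicle library 2 or CX library 1) to 0.33 (without vehicle library 1). Csf3r over Csf1r, the granulocyte against the monocyte receptor, differed by -0.04 (exact p = 1). After Benjamini-Hochberg adjustment over the 5 ratios, the lowest of these permutation p-values was 0.25.

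In p53null AML at 10 h, none of the 10 receptor genes passed an FDR of 0.05 in the authors' deposited table. That is 0 members where 0.0389% of all genes were called lower and 0.148% higher, 5 and 19 genes of 12861, so few members could be called. There, in the authors' deposited table, 1 member had an unadjusted p under 0.05 (6.07% of all genes). It was Csf3r, with a positive log2 fold change of 0.16 in the authors' deposited edgeR table (unadjusted p 0.0433, FDR 0.807), where p53WT AML had -0.42. The 10 values of the authors' deposited table ran from -0.13 for Csf2ra to 0.16 for Csf3r, 5 negative and 5 positive. Csf1r had 0.06 and Csf2rb2 0.04 in this authors' deposited table. Mature neutrophil markers had a median log2 fold change of -0.04 in it, with 0 of 14 called. The difference between the genotypes was not tested, since the p53null table holds no counts.

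At 72 h in p53WT AML, the receptor genes split. In the authors' deposited table Ifngr1 was 40.8% lower and Il3ra 28.9% lower, while Csf2rb2 was 1.58-fold, Ifngr2 1.3-fold and Csf2rb 1.17-fold higher. That makes 2 members called lower, where 15.1% of all genes were, and 3 called higher, where 16.1% of all genes were. By the authors' deposited table, 9 of the 10 members had an unadjusted p under 0.05, against 39.9% of all genes. Their median absolute log2 fold change there was 0.31, against 0.17 over all genes. No value per library exists at 72 h, so the spread behind these values cannot be shown.

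**Figure D3:**
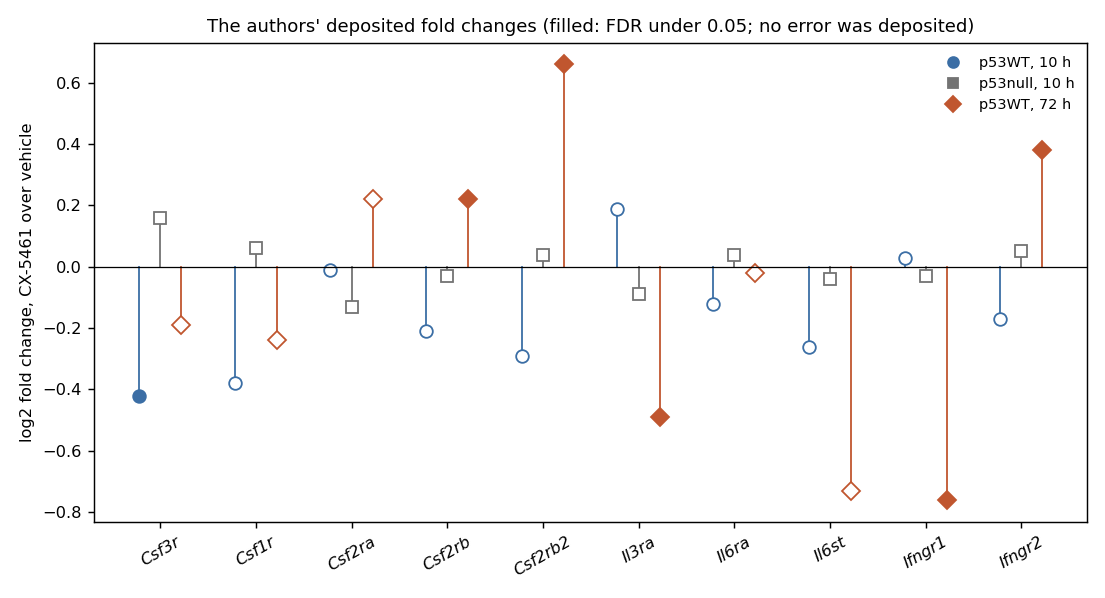
Log2 fold change of each receptor gene (y axis, CX-5461 over vehicle) in the authors' deposited tables for p53WT AML at 10 h (circles), p53null AML at 10 h (squares) and p53WT AML at 72 h (diamonds), with filled symbols for an FDR under 0.05 and no error, since none was deposited. The p53null values stay between -0.13 and 0.16, and at 72 h Ifngr1 (-0.76) and Csf2rb2 (0.66) lie at the extremes.

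Of the receptors that mark a lineage, neither passed at 72 h. Csf3r had a log2 fold change of -0.19 (FDR 0.115) and Csf1r one of -0.24 (FDR 0.0862) in the authors' deposited table. All 14 mature neutrophil markers and 7 of 11 measured monocyte and macrophage markers were called higher in that authors' deposited table, and 1 of the 11 lower. The 1 called lower was the monocyte gene Ccr2 (-0.54, FDR 0.00333, authors' deposited table). At 10 h, where Csf3r and Csf1r also had negative values, the authors' deposited table called all 14 neutrophil markers lower. Of the 10 measured monocyte and macrophage markers it called 6 lower and 0 higher. By edgeR's quasi-likelihood test, 11 of 14 and 2 of 10 were called lower at 10 h. The part of other cells in these values was not tested.

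Among the ligand-binding chains at 72 h, Ifngr1 had a log2 fold change of -0.76 (FDR 2.25e-20) and ranked at 100 of 12838 genes by p in the authors' deposited table. Il3ra had -0.49 (FDR 1.1e-05), Csf2ra 0.22 (FDR 0.058) and Il6ra -0.02 (FDR 0.935) in the authors' deposited table. Of the signalling chains, Csf2rb2 had 0.66 (FDR 2.53e-11), Ifngr2 0.38 (FDR 4.08e-05) and Csf2rb 0.22 (FDR 0.0221) in the authors' deposited table. Il6st, at a mean of only 10.2 CPM in the authors' deposited table, had -0.73 (FDR 0.0601), a value nearly as large as that of Ifngr1 without passing. Called signalling chains were thus all higher and called ligand-binding chains all lower, over 5 genes, but only at the FDR of 0.05. The signalling chain Il6st (-0.73) and the ligand-binding chain Csf2ra (0.22) went the other way, and both would pass an FDR of 0.10. Csf2rb and Csf2rb2, both among the called signalling chains, may also share reads.

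Within receptor complexes, Ifngr1 and Ifngr2 moved apart at 72 h, as did Il3ra and Csf2rb2. Il3ra also pairs with Csf2rb, which had a smaller rise (0.22) than Csf2rb2 (0.66) in the authors' deposited table. The split of reads between these 2 beta chains is uncertain, so the Il3ra to Csf2rb2 ratio is too. In the authors' deposited table the difference of log2 fold changes was -1.14 for Ifngr1 against Ifngr2 and -1.15 for Il3ra against Csf2rb2, which puts each ratio at 0.455 and 0.45 of its vehicle value. It was -0.01 for Csf2ra against Csf2rb, whose values were both 0.22 in the authors' deposited table. For Il6ra against Il6st it was 0.71, from the authors' deposited table, in which neither gene passed. For p53null AML the authors' deposited table gave 5 differences between -0.13 and 0.10. At 10 h in p53WT AML the permutation test cannot give a p under 0.1, so it could not call either ratio changed. There the log2 ratio of Ifngr1 to Ifngr2 was 0.20 higher with CX-5461, without overlap of the arms. That of Il3ra to Csf2rb2 was 0.50 higher, with overlapping arms. The difference between the times was not tested, since the 72 h table holds no counts.

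**Figure D4:**
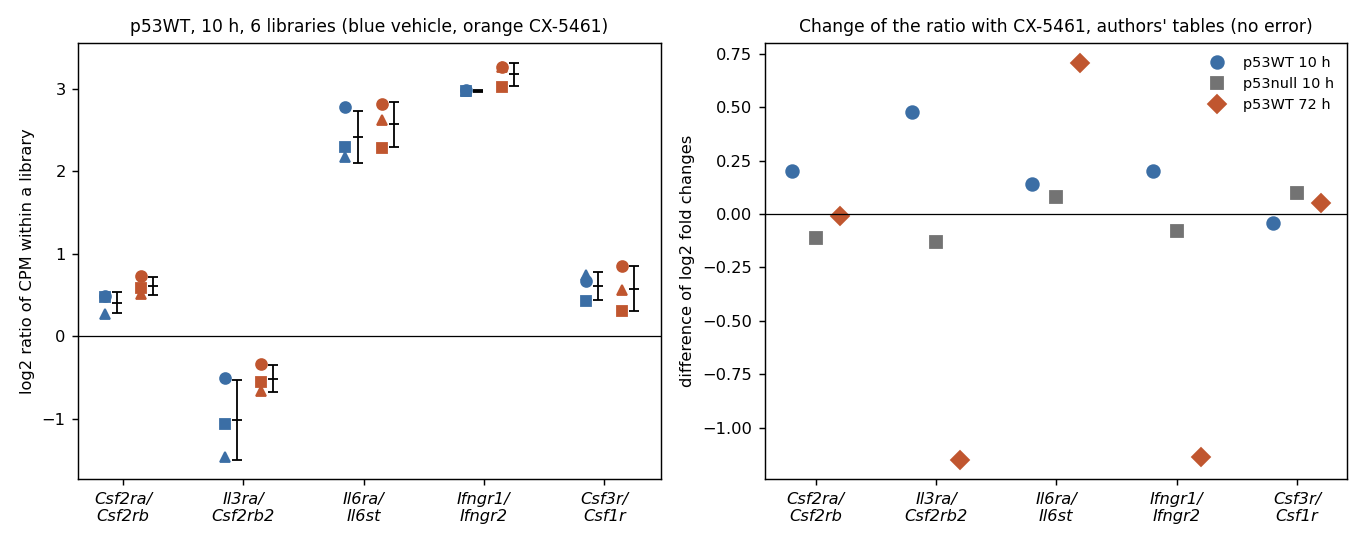
Left, log2 ratio of CPM of receptor partners within each of the 6 libraries of p53WT AML at 10 h (points) with the mean and SD of each arm; right, the difference of the authors' deposited log2 fold changes of the same partners in the 3 comparisons. At 72 h the Il3ra to Csf2rb2 and Ifngr1 to Ifngr2 ratios lie at -1.15 and -1.14, and every p53null value lies near 0.

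The authors' deposited tables also give a mean level over both arms, with each table normalized separately. Mean levels of Csf3r were 261 CPM in p53WT AML at 10 h, 151 CPM in p53null AML and 242 CPM in p53WT AML at 72 h in the authors' deposited tables. Csf2ra was listed at 436, 260 and 410 CPM and Ifngr1 at 483, 316 and 442 CPM in the same order in the authors' deposited tables. Il6st ran the other way, at 19.1, 29.3 and 10.2 CPM in the authors' deposited tables. Sample titles at 10 h carry different tags for the 2 genotypes, so genotype and leukemia cannot be told apart. Titles at 72 h carry neither tag, so the labels do not show whether p53WT AML at 10 h and at 72 h was the same leukemia. Time and leukemia thus cannot be told apart either.

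Of 9 genes for the ligands of these receptors, 1 was in the tables, which leave out genes with low counts. It was Csf1, the gene of M-CSF, at 4.52 to 7.13 CPM at 10 h in p53WT AML. Its log2 fold change at 72 h was 0.42 (FDR 0.0216) in the authors' deposited table. Of 22 other cytokine and growth factor receptors measured at 10 h in p53WT AML, 0 rose and 3 fell by the edgeR quasi-likelihood test. They were the interleukin 18 receptor chain Il18rap (log2 fold change -0.90), the interleukin 1 decoy receptor Il1r2 (-1.23) and the interleukin 10 receptor chain Il10ra (-0.93). Of 11 JAK and STAT genes 0 rose and 3 fell, Stat4 (-0.38), Jak1 (-0.24) and Stat6 (-0.18). Jak1 is the kinase bound to Ifngr1 and gp130, and it went from 249 ± 11.6 to 211 ± 0.768 CPM (SD, n = 3).

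Further down the pathway at 10 h, the kinase Syk (-0.26) was the 1 of 18 adaptor and proximal kinase genes that fell, and 0 rose. Of 17 measured negative regulators 0 rose and 2 fell, the phosphatase gene Ptpn6 (SHP-1, -0.32) and Pias3 (-0.37), an inhibitor of STAT3. Among 17 measured cytokine target genes, the adhesion molecule Icam1 (0.50) and cyclin D1, Ccnd1 (0.98) rose and the interferon-induced GTPase gene Gbp2 fell by 1.60 on the log2 scale. The authors' deposited table for the same libraries called 3 of these 17 higher and 5 lower, adding Ccnd2 (0.45) among the higher and Pim1 (-1.12) and Egr1 (-1.29) among the lower. For other receptors it called 0 higher and 5 lower, for JAK and STAT genes 0 and 1, and for negative regulators 0 and 0, again in the authors' deposited table. Of 11 measured myeloid transcription factors 0 passed. In p53null AML, 0 genes of any of these lists were called in the authors' deposited table.

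At 72 h the same lists held calls in both directions in the authors' deposited table. Of 23 other receptors 9 were higher and 5 lower, among them Il18rap (1.15), the TGF-beta receptor Tgfbr2 (1.25), Il1r1 (0.95), the stem cell factor receptor Kit (-0.87), Il15ra (-0.56) and Ifnar2 (-0.35), all from the authors' deposited table. Among JAK and STAT genes, Stat3 (0.28), which acts downstream of gp130, and Jak1 (0.27) were higher in the authors' deposited table. Among 18 target genes 7 were higher and 2 lower in the authors' deposited table, with Ciita (2.49), Icam1 (0.74) and Mcl1 (0.64) higher and Gbp3 (-0.51) and Irf8 (-1.42) lower. Ciita, Irf8 and Gbp3 are all known as interferon gamma targets, so targets of the receptor whose Ifngr1 chain was lower stood on both sides.

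Of 17 negative regulators at 72 h, 5 were higher and 1 lower in the authors' deposited table. The phosphatase gene Ptpn1 (0.33), the STAT5 target Cish (0.74) and the lipid phosphatase gene Inpp5d (0.23) were higher, and Usp18 (-1.72), a brake on type I interferon signalling, was lower in the authors' deposited table. Of 18 adaptors and kinases 6 were higher, with Lyn (0.46) and Cbl (0.31) among them, and 2 lower, Irs2 (-0.36) and Gab1 (-0.30), in the authors' deposited table. Of 12 myeloid transcription factors 4 were higher and 2 lower in the authors' deposited table, with Irf4 (1.33), Ets2 (0.32) and Cebpd (0.31) higher and Cebpa (-0.75) and Runx1 (-0.40) lower. Median log2 fold changes were 0.16 for other receptors, 0.21 for targets and -0.10 for the 10 members in the authors' deposited table, against -0.01 over all genes.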

How the data were processed

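RNA was sequenced from 18 samples, 3 in each of 6 groups. Per the submitters' processing notes, the tools were CASAVA 1.8.2, Bowtie, HTSeq and edgeR, on mm9. No order, setting or annotation is stated there. The authors deposited 3 edgeR tables which, per the file headers, give log2 fold changes, the log2 of mean CPM (reads of a gene relative to its library's total), p-values and false discovery rates (FDR). Raw counts were deposited for 6 libraries (p53WT AML, 10 h), with totals of 21578685 to 48118513. The numbers of the count columns (1 to 3) differ from those of the sample titles, so columns were assigned to groups only.

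Counts were normalized by TMM and tested across all 12679 genes by edgeR's two-sided quasi-likelihood test (edgeR 4.0.16, R 4.3.3), fitting treatment alone with 4 residual degrees of freedom. The threshold was a Benjamini-Hochberg adjusted p under 0.05. On simulated counts of this comparison (12679 genes), the test recovered 47% of changes of 0.5 on the log2 scale and 78% of changes of 1. Set against the counts, a positive log2 fold change of the authors' means more RNA after CX-5461. Tables lacking counts were read alike, without such a check. Ensembl IDs were matched to symbols for 12237, 12366 and 12362 genes of the tables for p53WT AML at 10 h, p53null AML and p53WT AML at 72 h. CPM per kilobase used merged exons of GENCODE M21, which is not the authors' annotation.

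The members, gene lists and tests were chosen with earlier results of these data known. All members are named. Of each list of pathway genes, up to 3 genes per direction with the smallest p past the threshold are named, and the 3 genes most like a called member by Pearson correlation at a mean of at least 5 CPM. Some genes that this rule takes are not reported here. Genes named beyond this rule were chosen after their values were seen. Whether column numbers pair the libraries was checked by correlating deviations from the group means, after the blocked calls had been seen. Same-numbered libraries correlated at 0.30, 0.11 and 0.03 over all genes, at 0.34, 0.19 and 0.00 over genes averaging at least 5 CPM, and at 0.36, 0.28 and 0.12 over genes with a mean log2 CPM over 2. The answer thus depended on the filter. The fit without a block was kept, and blocked values are given beside the results they change. Alternatives were other normalizations, tests and filters, leaving out each library, the block, and marker covariates. The last 2 kinds were added after the data were seen.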

Additional observations from a re-analysis of the deposited data

How the results depend on the processing

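The count of receptor genes called lower at 10 h in p53WT AML, 1, was 2 by DESeq2 and by the edgeR exact test, 3 with the replicate block by column number, 0 with the neutrophil or the erythroid covariate, and 0 to 1 without one library (0 without any single CX library). The count called higher, 0, was 0 to 1 without one library. Over all genes, 1027 calls became 2306 by DESeq2, 1716 by the edgeR exact test, 1536 with the replicate block, 13 with the neutrophil covariate, 20 with the erythroid covariate and 23 to 1678 without one library: 1678, 1235 and 1314 without vehicle library 1, 2 or 3, and 25, 23 and 23 without CX library 1, 2 or 3. The causes were not tested. Csf3r was negative under all 16 alternatives (-0.45 to -0.38). Csf2ra turned to 0.03 by library size alone and ranged from -0.04 to 0.03 without one library (0.03 without vehicle library 3, 0.00 without CX library 2). In the authors' deposited tables, the count was 0 at an FDR of 0.01 for p53WT AML at 10 h and 8 at an FDR of 0.10 at 72 h. The block by title numbers was not run, because count columns could not be tied to titles. Low depth limits Il6st most, with 343 reads in its shallowest library.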
